A study of Saccharomyces cerevisiae with 14 samples.

Results

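The genes described here are 10 yeast genes of phosphate uptake, phosphate release and polyphosphate storage. They are the transporters PHO84 and PHO89 and the uptake inhibitor SPL2, the phosphatases PHO5 and PHO8, the pathway regulators PHO4 and PHO81, and the polyphosphate polymerase subunits VTC1, VTC3 and VTC4. They were chosen by name: a probe set (the group of short oligonucleotides that measures 1 transcript on the array) belongs to the set where the platform annotation pairs it with 1 of these symbols. All 10 genes had 1 probe set each, of the 5449 Saccharomyces cerevisiae genes (5498 probe sets) that the annotation pairs with a single gene. The genes were named with their course over the fermentation in view, and PHO84 was named for a strong early rise. Values over the 3 stages are therefore given as a description without a test, and PHO84 has no test in any comparison that holds arrays of the early step.

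RNA came from the industrial wine yeast M2, a diploid strain, and from M2 nsf1∆, a homozygous nsf1::KanMX mutant that lacks NSF1 (YPL230W, listed as USV1 on the array), a gene for a zinc finger transcription factor. Both strains fermented filter-sterilised Riesling must without shaking and with no further treatment, and cells were sampled 24 h after inoculation and when 20% and 85% of the glucose was fermented. The nsf1∆ strain gave 2 arrays at 24 h, 2 at 20% and 3 at 85%, and M2 gave the same numbers. The labels call the replicates of each group biological. Expression was measured with Affymetrix Yeast 2.0 arrays and is given as log2 intensity, so that 1 unit is a factor of 2. The number of arrays limits the precision throughout. The values are averages over a culture, in which fewer cells with a transcript and less transcript per cell cannot be told apart.

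Inorganic phosphate enters yeast through low-affinity carriers when it is plentiful and through the high-affinity carriers Pho84 and Pho89 when it is scarce. The switch is run by the cyclin and kinase pair Pho80 and Pho85, which keeps the activator Pho4 out of the nucleus. When phosphate runs low, the inhibitor Pho81 blocks the kinase, and Pho4 turns on the transporters, secreted and vacuolar phosphatases, Spl2 and the VTC (vacuolar transporter chaperone) complex. That complex makes polyphosphate, the chain of phosphates that yeast stores in the vacuole, and the store buffers the switch.

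NSF1 was measured at 2.95 and 3.58 (log2) in the nsf1∆ arrays at 24 h, 3.52 and 4.28 at the 20% stage, and 3.63, 3.95 and 5.90 at 85%. In M2 it was 9.10 and 8.92 at 24 h, 10.71 and 9.98 at the 20% stage, and 13.12, 12.90 and 13.19 at 85%. Every nsf1∆ array lay far below every M2 array, and replicate 3 of nsf1∆ at 85% stood above the other nsf1∆ arrays. Probe sets for Schizosaccharomyces pombe, a yeast not in these cultures, gave a background with a median of 3.06 and a 95th percentile of 3.62, and the lowest value of any of the 10 phosphate genes was 5.61. Replicates correlated at r of 0.9849 to 0.9962 over all S. cerevisiae probe sets, and the arrays' medians lay between 8.87 and 8.95. Of 16 haploid-specific genes, 15 passed the test upwards and 1 downwards in nsf1∆ at 85% against 24 h, and 15 and 0 in M2. Their summed linear intensity was 1034 to 1243 in nsf1∆ and 990 to 999 in M2 at 24 h, 1564 to 1590 and 1461 to 1660 at the 20% stage, and 5370 to 6272 and 6411 to 6952 at 85%. The haploid genes NEJ1 and STE18 were below the background at 24 h in both strains. Of 10 sporulation genes, 8 passed upwards and 2 downwards over the same span in nsf1∆, and 8 and 1 in M2. Of all probe sets, 37% passed upwards and 36% downwards over that span in nsf1∆, and 38% and 35.2% in M2. Between the strains at 85%, 3 haploid genes passed upwards and 1 downwards, beside 8.84% of all probe sets in either direction. None of either list passed between the strains at 24 h or 20%. The part of these markers in the stage values below was not tested.

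PHO84, the high-affinity proton-phosphate symporter of the plasma membrane (YML123C), peaked at the middle stage in both strains. Its log2 intensity was 6.38 and 7.22 in the nsf1∆ arrays at 24 h, 9.27 and 9.19 at the 20% stage, and 6.52, 5.85 and 6.14 at 85%. In M2 it was 5.95 and 6.31 at 24 h, 10.82 and 10.10 at the 20% stage, and 5.93, 5.61 and 6.07 at 85%. The arrays of the middle stage lay above all others, and within that stage both M2 arrays lay above both nsf1∆ arrays.

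The early step of PHO84 (20% minus 24 h) was 2.43 in nsf1∆, a factor of 5.39, and 4.33 in M2, a factor of 20.1. Ranked by this difference among 5498 probe sets, PHO84 was number 16 in nsf1∆ and number 4 in M2. The late step (85% minus 20%) was -3.06 in nsf1∆, a factor of 8.35, and -4.59 in M2, a factor of 24.0. Only 1 probe set had a more negative late step in M2, where PHO84 ranked 5497. Over the whole course PHO84 returned close to its first level, with 85% minus 24 h at -0.63 in nsf1∆ and -0.26 in M2.

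In order of the group means, PHO84 was highest in M2 at 20% (10.46 ± 0.50) and next in nsf1∆ at 20% (9.23 ± 0.06). It was 6.80 ± 0.59 in nsf1∆ at 24 h, 6.17 ± 0.34 in nsf1∆ at 85%, 6.13 ± 0.26 in M2 at 24 h and 5.87 ± 0.24 in M2 at 85% (SD, n = 2 or 3). The ranges of the 4 lower groups overlapped between each neighbouring pair in that order, while those of the upper groups did not.

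**Figure D1:**
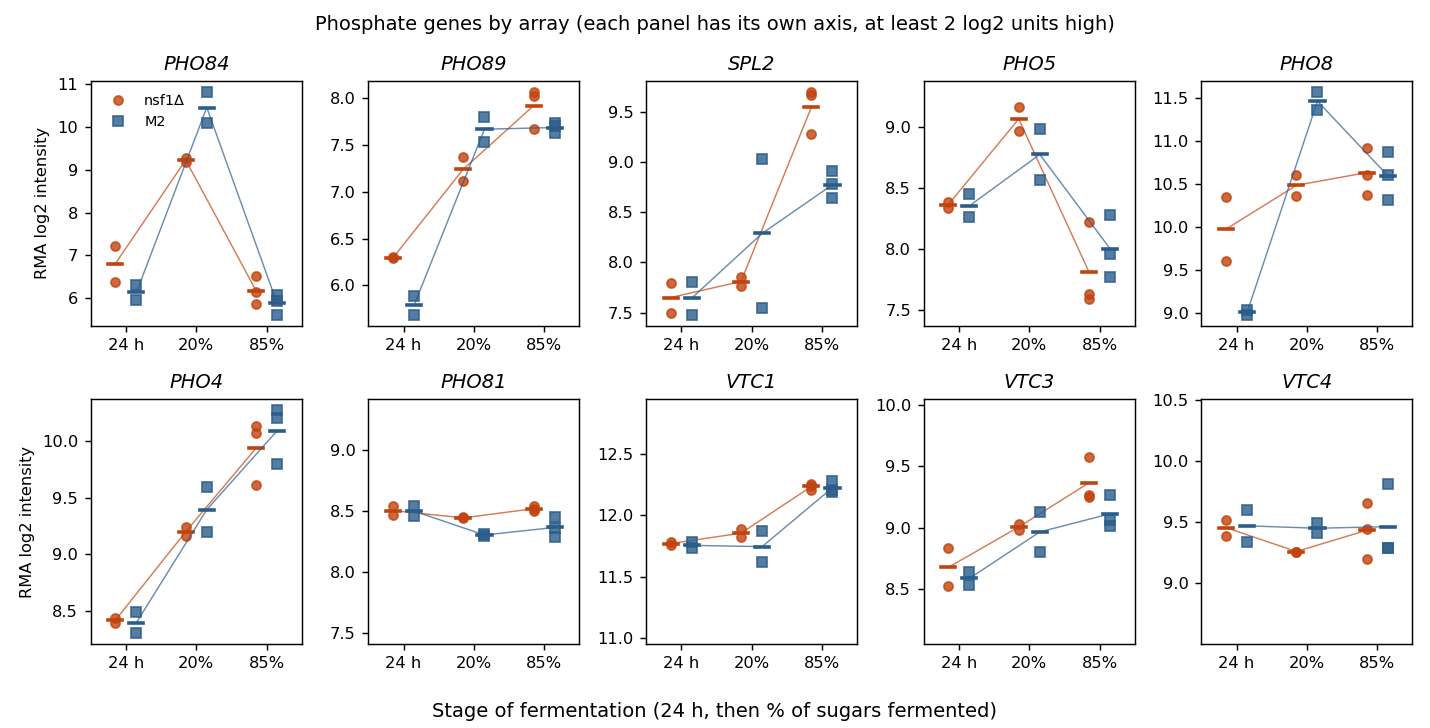
RMA log2 intensity (vertical axis, its own range in each panel) of the 10 phosphate genes at 24 h and at 20% and 85% of sugars fermented (horizontal axis). Circles are nsf1∆ arrays, squares M2 arrays, bars group means joined by lines. PHO84 peaks at 20% in both strains, PHO8 has its steep early step in M2, PHO4 is higher at each later stage, and PHO81 and VTC4 stay near 1 level.

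PHO89, the sodium-phosphate cotransporter that works best at alkaline pH, did not come back down at the end as PHO84 did. It had 6.30 and 6.29 in nsf1∆ at 24 h, 7.11 and 7.37 at the 20% stage, and 7.67, 8.06 and 8.02 at 85%. In M2 it had 5.69 and 5.89 at 24 h, 7.80 and 7.53 at the 20% stage, and 7.70, 7.73 and 7.62 at 85%. M2 was at its final level by the middle stage, with a late step of 0.02, whereas nsf1∆ had an early step of 0.95 (M2 1.88) and a late step of 0.68. Over the whole course the factor was 3.09 in nsf1∆ and 3.73 in M2.

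SPL2 encodes a small protein that holds back low-affinity uptake. Its values in nsf1∆ were 7.50 and 7.80 at 24 h, 7.85 and 7.77 at the 20% stage, and 9.28, 9.70 and 9.67 at 85%. Its values in M2 were 7.81 and 7.48 at 24 h, 9.03 and 7.55 at the 20% stage, and 8.78, 8.64 and 8.91 at 85%. At 85% all 3 nsf1∆ arrays lay above all 3 M2 arrays, while at 20% the M2 replicates were 9.03 and 7.55 and spanned the nsf1∆ values. The 85% minus 24 h difference of SPL2 was 1.90 in nsf1∆, a factor of 3.74, and 1.13 in M2, a factor of 2.19.

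PHO8 encodes the alkaline phosphatase of the vacuole. It measured 9.60 and 10.35 in nsf1∆ at 24 h, 10.61 and 10.36 at the 20% stage, and 10.92, 10.37 and 10.61 at 85%. It measured 9.03 and 8.98 in M2 at 24 h, 11.36 and 11.57 at the 20% stage, and 10.61, 10.31 and 10.87 at 85%. The strains stood apart in opposite directions at the first stages: both nsf1∆ arrays were above both M2 arrays at 24 h and below both at 20%, and at 85% the strains overlapped. The early step was 0.51 in nsf1∆ (a factor of 1.42) and 2.46 in M2 (a factor of 5.48, rank 32 of 5498), and the late step was 0.15 in nsf1∆ and -0.87 in M2.

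PHO5, the repressible acid phosphatase secreted to the cell wall, had a shallow peak at the middle stage. Values in nsf1∆ were 8.39 and 8.34 at 24 h, 9.16 and 8.97 at the 20% stage, and 7.59, 7.63 and 8.22 at 85%. Values in M2 were 8.26 and 8.45 at 24 h, 8.57 and 8.98 at the 20% stage, and 7.96, 7.77 and 8.28 at 85%. The strains overlapped at every stage, and the early steps of 0.70 in nsf1∆ and 0.42 in M2 were small beside those of PHO84. The late steps of PHO5 were -1.25 in nsf1∆ and -0.77 in M2. PHO3, the constitutive acid phosphatase gene next to PHO5, has a probe set of its own and took another course, given with the other phosphate genes below. The PHO11 probe set carries the suffix by which Affymetrix marks probes shared between transcripts, and PHO12, the near-identical copy of PHO11, has no entry of its own, so that value cannot be assigned to either copy. None of the 10 probe sets carries that suffix.

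PHO4, the helix-loop-helix activator of the pathway, was higher at each later stage in both strains. It had 8.44 and 8.40 in nsf1∆ at 24 h, 9.24 and 9.16 at the 20% stage, and 9.61, 10.07 and 10.13 at 85%. It had 8.49 and 8.31 in M2 at 24 h, 9.20 and 9.59 at the 20% stage, and 10.27, 9.80 and 10.20 at 85%. No stage overlapped with another within a strain, and the strains overlapped at every stage. The 85% minus 24 h difference was 1.52 in nsf1∆, a factor of 2.86, and 1.69 in M2, a factor of 3.22. PHO81, the inhibitor of the Pho80 and Pho85 pair, hardly moved: all 14 values lay between 8.29 and 8.54, and its stage differences lay between -0.06 and 0.07 in nsf1∆ and between -0.19 and 0.06 in M2. The activator and the inhibitor of the same switch thus had unlike courses at the RNA level.

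The subunits of the polyphosphate polymerase did not share the middle-stage peak of PHO84, and VTC1 and VTC3 had a course more like that of PHO89 (Pearson's r over the 14 arrays 0.67 and 0.86) and SPL2 (0.86 and 0.88). VTC1, the small membrane subunit, was 11.76 to 11.89 in nsf1∆ and 11.62 to 11.87 in M2 at 24 h and 20%. At 85% VTC1 was 12.21 to 12.26 in nsf1∆ and 12.19 to 12.28 in M2, above every earlier array. VTC3, a regulatory subunit with an SPX domain that senses inositol pyrophosphates, had 85% minus 24 h differences of 0.69 in nsf1∆ and 0.53 in M2. VTC4, the catalytic subunit, had whole-course differences of -0.02 in nsf1∆ and -0.01 in M2, and its 14 values ran from 9.20 to 9.81, with the 85% arrays spanning those of 24 h in both strains. None of these 3 genes had an early step above 0.38 in either strain.

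Over the 10 genes the median early step was 0.42 in nsf1∆ and 0.54 in M2, beside 0.02 in each strain over all probe sets. The median late step was 0.27 in nsf1∆ and 0.04 in M2, beside -0.03 and 0.01 over all probe sets. The strong peak at the middle stage was thus a course of PHO84 and, in smaller form, of PHO5 and of PHO8 in M2, and not of the set as a whole.

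The comparison of the strains asks whether these levels depend on NSF1. The rule that chose the genes names no strain difference, but they were chosen with earlier results of these data known. At a Benjamini-Hochberg adjusted p under 0.05 in limma, which fits all 14 arrays and adjusts over 5498 probe sets, none of the 9 genes tested passed at 24 h, where 0.127% of all probe sets passed. None of 9 passed at 20%, where 0.346% of all probe sets passed, and none of 10 passed at 85%, where 8.84% did. At an unadjusted p under 0.05 the counts were 2 of 9 at 24 h, 2 of 9 at 20% and 1 of 10 at 85%, where 9.8%, 14.7% and 25.8% of all probe sets were under it, so that the last count was below the general share.

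PHO8 had the widest strain differences of the tested genes at the first stages. Its nsf1∆ minus M2 difference was 0.97 ± 0.24 (SE) at 24 h (95% interval 0.44 to 1.50, adjusted p = 0.163) and -0.98 ± 0.24 at 20% (-1.51 to -0.45, adjusted p = 0.0914). At 85% the difference was 0.04 (-0.39 to 0.47, adjusted p = 0.933). Leaving out replicate 1 of nsf1∆ at 24 h took the first difference past the threshold (1.34, adjusted p = 0.0228), while leaving out replicate 2 lowered it to 0.59 (adjusted p = 1). Leaving out either nsf1∆ array of 24 h took the 20% difference past the threshold (adjusted p = 0.048).

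PHO89 had nsf1∆ minus M2 differences of 0.51 at 24 h (0.17 to 0.84, adjusted p = 0.271), -0.42 at 20% (-0.76 to -0.09, adjusted p = 0.221) and 0.23 at 85% (-0.04 to 0.51, adjusted p = 0.278). SPL2 had 0.00 at 24 h (adjusted p = 0.999) and -0.49 at 20% (-1.21 to 0.24, adjusted p = 0.552). The 20% value rested on the M2 replicates there, being -1.23 without replicate 2 (adjusted p = 0.0323) and 0.25 without replicate 1 (adjusted p = 0.817). SPL2 was at 0.77 ± 0.27 at 85% (0.18 to 1.37, adjusted p = 0.0962), with the strains not overlapping. Without either M2 array of 20%, which share the estimate of the spread, SPL2 passed at 85% (adjusted p = 0.0111). PHO84 was 0.30 ± 0.24 at 85% (-0.22 to 0.82, adjusted p = 0.479). Its differences at the stages without a test were 0.67 at 24 h and -1.23 at 20%.

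For the other 6 genes the nsf1∆ minus M2 differences were small. PHO5 had 0.01, 0.28 and -0.19 at 24 h, 20% and 85%, and PHO4 had 0.02, -0.20 and -0.15. PHO81 had 0.01, 0.14 and 0.15, VTC1 0.02, 0.11 and 0.01, VTC3 0.09, 0.04 and 0.25, and VTC4 -0.02, -0.19 and -0.03. The strains did not overlap for PHO81 at 20% and 85%, with nsf1∆ higher, or for VTC4 at 20%, with nsf1∆ lower. The 95% intervals of VTC1 reached from -0.23 to 0.36 over the 3 stages, so that for this gene differences above that size lay outside the interval at every stage.

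**Figure D2:**
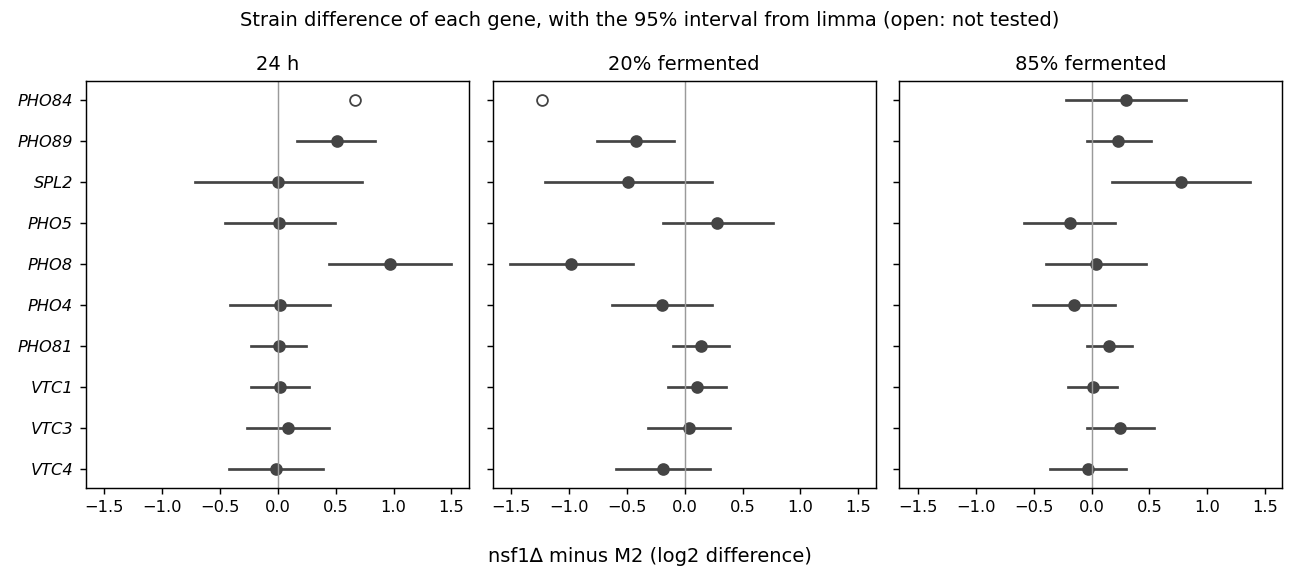
Difference in log2 intensity, nsf1∆ minus M2 (horizontal axis), of the 10 genes at 24 h, 20% and 85% fermented, with 95% intervals from limma. Open circles are PHO84 at the stages without a test. PHO8 lies to the right of 0 at 24 h (0.97) and to the left at 20% (-0.98), and SPL2 lies to the right at 85% (0.77).

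The early step itself was then compared between the strains with an interaction term. PHO8 passed: its step in nsf1∆ was smaller than in M2 by 1.95 log2 units (interaction -1.95 ± 0.35, SE, 95% interval -2.69 to -1.20, limma adjusted p = 0.0156). It was the only one of the 9 genes tested, beside 1.6% of all probe sets in either direction and 1.05% with a smaller step in nsf1∆. Between 23 alternative settings the interaction of PHO8 ranged from -2.32 to -1.57 and the adjusted p from 0.003 to 0.132. The call was lost without replicate 1 of M2 at 24 h (-1.97, adjusted p = 0.0605), replicate 2 of M2 at 24 h (-1.92, 0.0724), replicate 2 of nsf1∆ at 24 h (-1.57, 0.0876) or replicate 2 of nsf1∆ at 20% (-1.82, 0.132). It was also lost without both replicate 2 of nsf1∆ at 24 h and replicate 3 of nsf1∆ at 85% (-1.57). That setting was chosen after seeing the data, and neither array was tested for standing apart from its group.

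PHO89 had an interaction in the same direction that missed the threshold (-0.93 ± 0.22, SE, -1.41 to -0.45, adjusted p = 0.0568). It passed without replicate 1 of nsf1∆ at 85% (adjusted p = 0.0276). PHO84, not tested, had -1.90. The interaction of the late step passed in none of 9 genes (0.2% of all probe sets). At an unadjusted p under 0.05 there were 3 of 9, beside 13.9% of all probe sets. SPL2 had 1.26 there (0.32 to 2.20, adjusted p = 0.221), and this value rested on the M2 replicates of 20%: without replicate 2 it passed at 2.00 (adjusted p = 0.0128), and without replicate 1 it was 0.52 (adjusted p = 0.513). The interaction of 85% minus 24 h passed in none of 9 genes (2% of all probe sets). At an unadjusted p under 0.05 there was 1 of 9, beside 17.3% of all probe sets. PHO8, at -0.93 (adjusted p = 0.151), passed it without replicate 1 of nsf1∆ at 24 h (-1.30, adjusted p = 0.0347) and was -0.56 without replicate 2 (adjusted p = 0.486). All of these comparisons share arrays, and the interaction of the early step is the difference of the strain differences at 20% and 24 h.

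The nsf1∆ arrays lay between the M2 stages over other genes as well. On a scale where the mean of M2 at 24 h is 0 and that of M2 at 20% is 1, taken over 5459 other probe sets, the nsf1∆ arrays of 24 h stood at 0.095 and 0.282 and those of 20% at 0.866 and 0.834. On its own M2 step, PHO84 stood at 0.059 and 0.252 in nsf1∆ at 24 h and at 0.726 and 0.707 at 20%. PHO89 stood at 0.272 and 0.266 at 24 h and at 0.705 and 0.844 at 20%. PHO8 stood at 0.242 and 0.546 at 24 h and at 0.653 and 0.550 at 20%, so that replicate 2 of 24 h and replicate 2 of 20% held almost the same place. PHO84, PHO89 and PHO8 had early-step interactions of -1.9, -0.93 and -1.95, so that shorter nsf1∆ steps were given by the choice of these genes. Of the genes not placed on this scale, PHO5, PHO81 and VTC1 had positive interactions (0.27, 0.13 and 0.09). PHO4, SPL2, VTC3 and VTC4 had negative ones. For PHO8 the nsf1∆ arrays of both stages lay farther from the M2 stage of the same name than the other probe sets did on the whole. As PHO8 was chosen in this way, that is a description and no test. The part of this general position in the results of PHO8, PHO89 and PHO84 was not tested.

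**Figure D3:**
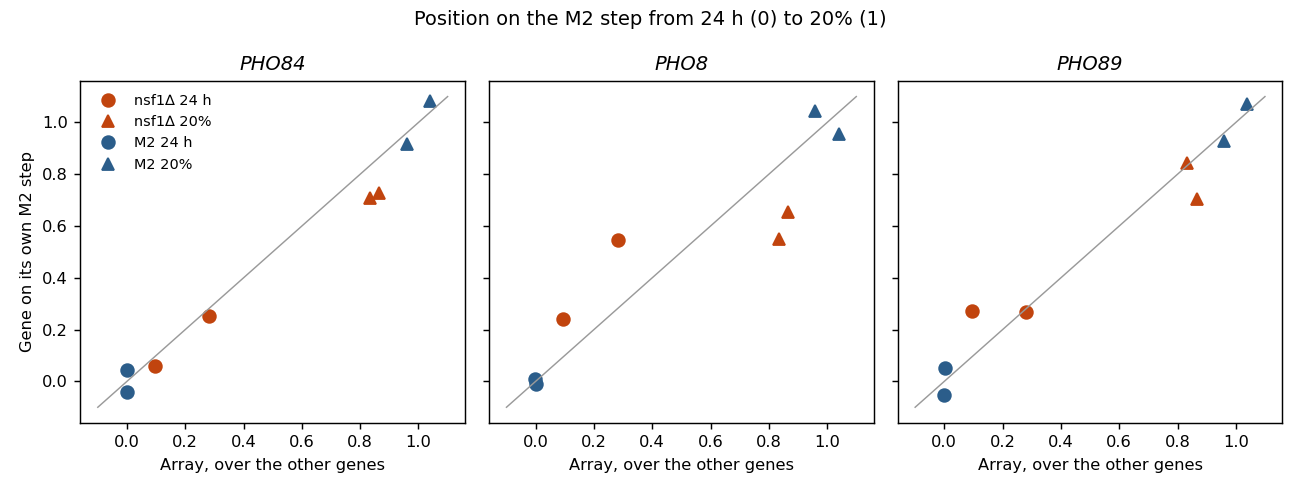
Position of each array on the M2 step from 24 h (0) to 20% (1), over 5459 other probe sets (horizontal axis) and for PHO84, PHO8 and PHO89 alone (vertical axis). Red symbols are nsf1∆ and blue M2, circles 24 h and triangles 20%, and the line marks equal positions. For PHO8 the nsf1∆ circles lie above the line (0.242 and 0.546) and the nsf1∆ triangles below it (0.653 and 0.550).

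A list of 31 other phosphate genes was read in the same way, of which 28 had a probe set (PHO12, VTC5 and PPN2 were not listed). Between the strains none of the 28 passed at 24 h or 20% (1 and 3 at an unadjusted p under 0.05, beside 9.8% and 14.7% of all probe sets). At 85%, 2 of 28 passed, both lower in nsf1∆. Of all probe sets, 8.84% passed the adjusted threshold there in either direction and 3.89% passed it lower. The 7 of 28 at an unadjusted p under 0.05 were near the general share of 25.8%. PIC2, a mitochondrial carrier of phosphate and copper, had 11.97, 12.33 and 12.21 in nsf1∆ and 12.66, 12.67 and 12.48 in M2 at 85% (-0.43 ± 0.12, SE, adjusted p = 0.0383). PHO92, a reader of methylated RNA that acts on PHO4 mRNA, had 6.53, 7.17 and 7.60 in nsf1∆ and 8.24, 8.15 and 7.49 in M2 (-0.86 ± 0.23, SE, adjusted p = 0.0399). The strains did not overlap for PIC2 and did for PHO92, and each call was lost in many alternatives, 11 of 25 for PIC2 and 13 of 24 for PHO92. None of the 28 passed an interaction. At an unadjusted p under 0.05 there were 4 for the early step, 3 for the late step and 4 for the whole course, beside 15.5%, 13.9% and 17.3% of all probe sets, which these counts did not exceed.

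Across the early step 6 of the 28 rose and 4 fell in nsf1∆, and 9 rose and 5 fell in M2, beside 19.9% higher and 18.3% lower of all probe sets in nsf1∆ (38.2% in all) and 26.5% higher and 26.4% lower in M2 (52.9% in all). Among carriers, PHO90 (low-affinity uptake) rose by 0.90 in nsf1∆ and 0.59 in M2, and MIR1 (mitochondrial phosphate carrier) by 0.54 and 1.17. The nsf1∆ call of MIR1 (adjusted p = 0.044) was lost in 12 of 23 alternatives. Among phosphatases, DIA3, an acid phosphatase homologue, rose by 2.20 in nsf1∆ and 3.14 in M2. PHO13, a phosphatase of small metabolites, fell by 1.34 in nsf1∆ and 1.21 in M2. PHM6, a phosphate-regulated gene of unknown function, rose by 1.56 in nsf1∆ and 2.20 in M2, and PPX1, an exopolyphosphatase, fell by 1.00 and 0.89. PHM7, also phosphate-regulated, fell by 0.92 in nsf1∆ (adjusted p = 0.00413) and had 0.20 in M2 (adjusted p = 0.454). PHO2, the homeobox partner of Pho4, rose in M2 by 0.74 and had 0.41 in nsf1∆ (adjusted p = 0.142). The low-affinity carrier PHO87 did not pass in either strain (0.00 in nsf1∆ and 0.13 in M2).

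Across the late step 8 rose and 14 fell in nsf1∆, and 8 rose and 12 fell in M2, beside 31.6% higher and 33.9% lower of all probe sets in nsf1∆ (65.5% in all) and 33.1% higher and 31.9% lower in M2 (65% in all). The low-affinity carrier PHO87 fell by 1.74 in nsf1∆ and 1.87 in M2, and the vacuolar exporter PHO91 fell by 1.36 and 1.77. All 3 other polyphosphate genes fell in both strains. VTC2, another SPX subunit of the polymerase, fell by 1.44 in nsf1∆ and 1.77 in M2. The endopolyphosphatase PPN1 fell by 0.90 and 0.86, and PPX1 by 0.89 and 1.05. These late steps of VTC2 had the opposite sign to those of VTC1 and VTC3. The late steps of VTC1 and VTC3 were 0.38 and 0.36 in nsf1∆ and 0.48 and 0.15 in M2.

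The sharpest late changes were among phosphatases, all 5 of which passed in both strains. PHO3 had 11.52 and 11.13 in nsf1∆ at 24 h, 10.81 and 10.72 at the 20% stage, and 5.51, 5.54 and 6.41 at 85%. In M2 it had 11.75 and 11.39 at 24 h, 10.22 and 10.25 at the 20% stage, and 5.47, 5.64 and 5.96 at 85%. The late step of PHO3 was -4.95 in nsf1∆ and -4.54 in M2, close to that of PHO84 in M2, but PHO3 had no early rise. PHM8, a nucleotide phosphatase, rose by 3.54 in nsf1∆ and 3.46 in M2, and the PHO11 probe set rose by 0.52 and 0.87. Among regulators, PHO80, the cyclin, rose by 1.10 in nsf1∆ and 1.84 in M2, and PHO92 by 1.64 and 2.46. VIP1, a kinase that makes inositol pyrophosphates, fell by 0.81 in nsf1∆ and 0.85 in M2. From 24 h to 85% in all, 10 rose and 11 fell in nsf1∆ and 10 rose and 10 fell in M2, beside 37% higher and 36% lower of all probe sets in nsf1∆ (73% in all) and 38% higher and 35.2% lower in M2 (73.2% in all), so the share of phosphate genes that changed was near that of all genes.

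**Figure D4:**
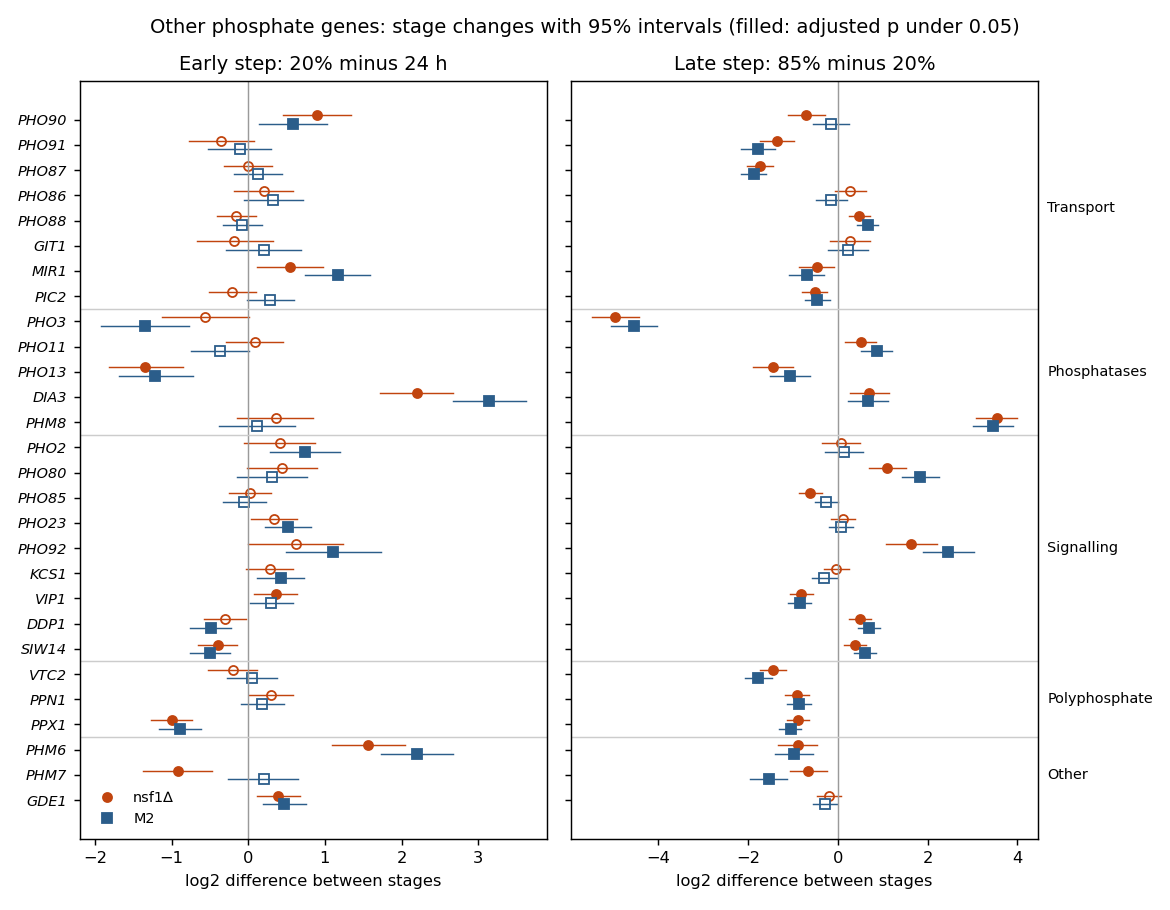
Stage differences in log2 intensity (horizontal axis) of 28 other phosphate genes, grouped by role, with 95% intervals: left the early step, right the late step. Circles are nsf1∆, squares M2, and filled symbols passed at an adjusted p under 0.05. DIA3 and PHM6 stand out to the right in the early step, and PHO3 (left) and PHM8 (right) in the late step.

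The probe sets with a course most like that of PHO84, by Pearson's r over the 14 arrays, were CTR3 (a copper transporter, r = 0.970), GPA2 (a G protein alpha subunit, 0.964), VHT1 (a vitamin H transporter, 0.962), IST1 (0.959) and MTC5 (0.957). CTR3 averaged 9.95 at 24 h, 10.79 at 20% and 9.18 at 85% in nsf1∆, and 9.33, 11.54 and 9.12 in M2. Of the other 9 phosphate genes named at the start, PHO5 was most like PHO84 (r = 0.764), then PHO8 (0.549) and PHO89 (0.147), and VTC1 was least like it (-0.55). Among the other phosphate genes MIR1 (0.835) and VIP1 (0.830) had high values, and SIW14 (-0.966) and DDP1 (-0.922), which encode phosphatases of inositol pyrophosphates, ran opposite to PHO84. These values rest on 6 groups of replicates that share their stage and strain, and they describe the arrays only.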

How the data were processed

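Total RNA of 14 samples was hybridised to Affymetrix Yeast 2.0 arrays. The authors deposited log2 intensities from RMA (Robust Multi-array Analysis), which corrects background, quantile-normalises the arrays and summarises each probe set, and such normalisation removes a shift shared by all genes. Of 10928 probe sets, 5498 are paired with 1 S. cerevisiae gene and entered the tests; 1746 S. pombe, 213 control, 3470 unlisted probe sets and 1 with several genes did not. All columns were used (0 left out). Flasks were sampled at successive stages, but replicate numbers are not tied to flasks in the sources used here, so samples of different stages may share a flask and were treated as independent.

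One limma 3.58.1 fit (R 4.3.3) over the 6 groups of strain and stage gave strain differences, stage differences and their interactions, with Benjamini-Hochberg adjustment over 5498 probe sets and a threshold of 0.05 (8 residual and 5.14 prior degrees of freedom). Tables and figures were made in Python 3.11.15. The 10 genes and all lists were chosen with earlier results of these data known. Of the other phosphate genes, those named passed a strain test or an interaction, are copies of a listed gene, or had up to 2 of the largest changes each way per role and step. The 5 probe sets most correlated with PHO84 were named. Tested on simulated data with 50 changed genes of each size among 5498, the strain fit recovered most log2 changes of 1. The share was 90% at 24 h, 84% at 20% and 98% at 85%, and 20%, 26% and 38% for changes of 0.5. In the simulation 162, 167 and 173 probe sets passed at these stages, against 7, 19 and 486 in the data. The adjustment is stricter where fewer pass, so the recovery at 24 h and 20% does not carry over to the data. Alternatives were a replicate block, a filter on dim probe sets, all probe sets, 2 other scalings, an intensity trend, array weights, arrays of the contrast alone, each array left out, a fold minimum of 2 and the methods' t-test.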

Additional observations from a re-analysis of the deposited data

Results flagged for a closer look

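The early step of PHO8, the vacuolar alkaline phosphatase, differed between the strains by a test of the difference itself: the 20% minus 24 h step was 0.51 in nsf1∆ and 2.46 in M2, an interaction of -1.95 ± 0.35 (SE, limma adjusted p = 0.0156). Both nsf1∆ arrays lay above both M2 arrays at 24 h and below both at 20%. The call was lost in 5 of 23 alternatives. Over other probe sets the nsf1∆ arrays also lay between the M2 stages, and the part of this in the PHO8 result was not tested. No group had 4 or more arrays, so no array was tested for standing apart from its group.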

How the results depend on the processing

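Beside the 10 genes, counts past the adjusted threshold were small, and several moved. At 85% the other phosphate genes (2 past the threshold, PIC2 and PHO92) gave 1 with the replicate block, 1 without the lowest 25% of probe sets, 0 over all probe sets of the table, 1 after quantile normalization again, 4 with array weights, 0 with the arrays of the contrast alone, 0 by the methods' t-test after Benjamini-Hochberg adjustment and 0 at a fold change of at least 2. Of the 10 genes (none passed between the strains), array weights gave 1 at 20% (PHO8) and 1 at 85% (SPL2). The arrays of the contrast alone gave 1 at 85% (SPL2). The methods' t-test, unadjusted, gave 2 at 20% (PHO8 and PHO81) and 1 at 85% (SPL2). For the other phosphate genes, array weights gave 1 at 20% (PHM7) and that t-test 1 at 24 h and 3 at 20%, against 0. Shares of all probe sets under that t-test were not counted. The interaction of the early step (1, PHO8) gave 2 with array weights (also PHO89). It gave 0 without both replicate 2 of nsf1∆ at 24 h and replicate 3 of nsf1∆ at 85%, a setting chosen after seeing the data.

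With each array left out in turn (where 1 array of a group stays, it is assumed to vary like the other groups), the strain counts ranged from 0 to 1 at 24 h and 20% for the 10 genes and 0 to 1 at 85%, and for the other phosphate genes from 0 to 1 at 24 h, 0 to 0 at 20% and 0 to 2 at 85%. The interaction counts ranged from 0 to 2 for the early step, 0 to 1 for the late step and 0 to 1 for the whole course. The early step of the other phosphate genes ranged from 6 to 11 in nsf1∆ (10 with all arrays, 6 without replicate 1 of 24 h or replicate 2 of 20%) and from 9 to 14 in M2 (14 with all arrays, 9 without replicate 1 of 20%). PIC2 lost its call without M2 85% replicates 1 or 2, nsf1∆ 20% replicates 1 or 2, or nsf1∆ 85% replicates 1 or 3 (adjusted p 0.0585 to 0.112). PHO92 lost it without either M2 array of 24 h, M2 85% replicates 1 or 2, either nsf1∆ array of 20%, or nsf1∆ 85% replicates 1 or 2 (adjusted p 0.0557 to 0.129). At 24 h DIA3 passed without replicate 1 of nsf1∆.

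Arrays with the same number, within or between strains, had deviations at r from -0.512 to 0.574 (mean -0.023, over 0.1 in 9 of 31 pairs). This does not settle pairing, which was not assumed. With the replicate block PHO92 lost its call at 85% (adjusted p = 0.0559), PHO8 kept its interaction (adjusted p = 0.0291), and the counts of the 10 genes did not move.

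Of the tested single-gene values followed through the alternatives, 1 changed sign, the strain difference of SPL2 at 20%, which ranged between -1.23 and 0.25 when single arrays were left out and was 0.25 without replicate 1 of M2 at 20%. The causes of these changes were not tested. Of tested single genes, 2781 values under alternatives kept their side of the threshold, 120 lost it and 15 gained it; of stage values without a test, 1477 moved by less than the spread between replicates and 5 by more, all after quantile normalization again (VTC1 and PHO89). The filter on dim probe sets leaves out PHO84, PHO89, PHO87, GIT1, PHO92, PHM6 and NSF1, and the annotation pairs no other probe set with any of the 10 genes, so that alternative was not run. With 2 or 3 arrays a group, strain differences of 0.5 were mostly out of reach in the simulation. Differences near 1 could also miss the threshold in the data, as PHO8 did at 24 h and 20% (0.97 and -0.98).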
